A study of Homo sapiens with 6 samples.

Results

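The data cover 39 genes of glycolysis and of the cellular response to low oxygen in OCI-AML3, a human cell line established from acute myeloid leukaemia, whose NPM1 mutation sends the protein to the cytoplasm (NPM1c). The genes were listed by symbol, without use of a measured value, and all 39 were found among the 28307 genes counted. Of these, 37 passed the filter on low counts, out of 12938 genes of the whole table. The 2 left out, CA9 and ANKRD37, had at most 1 count in any library. Of the 39 genes, 27 belong to glycolysis and its entry and exit steps, and 12 to the hypoxia response.

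Libraries came from cells given either a control siRNA (siControl) or an siRNA against NPM1c (siNPM1c), each at a final concentration of 10 nM by lipid transfection, and collected on day 3. Each group had 3 libraries of total RNA. All 6 carry the genotype label WT, the same batch label and the same growth conditions (10% serum, 5% CO2), and no treatment with low oxygen is named. The labels describe 1 cell line and 1 siRNA condition against NPM1c, and do not say whether replicates were separate cultures. The p-values thus rest on how much these libraries varied, and that variation may be technical only.

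Glycolysis turns glucose into pyruvate, which lactate dehydrogenase can reduce to lactate. Cells lean on it when oxygen is short, and many leukaemia cells also when oxygen is present. Under low oxygen the hypoxia-inducible factors HIF-1alpha (HIF1A) and HIF-2alpha (EPAS1) escape hydroxylation by the EGLN enzymes and degradation through VHL, bind short DNA sites with the core RCGTG, and raise glucose transporters, glycolytic enzymes, EGLN3, VEGFA and mitophagy receptors. The factors are controlled largely as proteins, which these RNA counts do not measure.

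To show where such core letters stand in these genes, promoters were read from RefSeq (GRCh38.p14) as 250 bases before and 50 after a transcription start. Promoters were matched for 33 of the 39 genes, 60 promoters in all. The lines that follow were picked after the values were known: the first 3 hold the most matches of any promoter of the set, 6 each, and the fourth belongs to EGLN3, whose transcript rose most. Capitals mark ACGTG or GCGTG on either strand, and the letters CACGTG (an E-box, which other factors also bind) hold a match on each strand and count as 2.
LDHA, chr11:18394313-18394612, plus strand: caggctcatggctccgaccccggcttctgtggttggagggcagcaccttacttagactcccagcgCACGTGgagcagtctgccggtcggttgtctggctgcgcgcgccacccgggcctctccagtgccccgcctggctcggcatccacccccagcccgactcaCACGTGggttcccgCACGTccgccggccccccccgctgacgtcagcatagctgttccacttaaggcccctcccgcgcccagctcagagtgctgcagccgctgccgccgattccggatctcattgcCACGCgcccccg
BNIP3, chr10:131981874-131982173, minus strand: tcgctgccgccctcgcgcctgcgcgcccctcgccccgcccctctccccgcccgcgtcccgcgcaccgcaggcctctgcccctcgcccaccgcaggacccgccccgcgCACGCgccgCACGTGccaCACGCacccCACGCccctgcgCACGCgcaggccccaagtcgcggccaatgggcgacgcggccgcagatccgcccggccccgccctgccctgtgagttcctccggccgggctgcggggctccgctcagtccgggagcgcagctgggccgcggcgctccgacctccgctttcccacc
HK2, chr2:74834920-74835219, plus strand: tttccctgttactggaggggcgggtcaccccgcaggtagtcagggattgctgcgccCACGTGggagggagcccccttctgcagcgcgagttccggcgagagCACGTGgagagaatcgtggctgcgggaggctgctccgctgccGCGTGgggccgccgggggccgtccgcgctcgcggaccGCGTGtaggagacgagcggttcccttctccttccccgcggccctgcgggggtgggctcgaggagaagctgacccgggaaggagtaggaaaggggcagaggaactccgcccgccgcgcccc
EGLN3, chr14:33951025-33951324, minus strand: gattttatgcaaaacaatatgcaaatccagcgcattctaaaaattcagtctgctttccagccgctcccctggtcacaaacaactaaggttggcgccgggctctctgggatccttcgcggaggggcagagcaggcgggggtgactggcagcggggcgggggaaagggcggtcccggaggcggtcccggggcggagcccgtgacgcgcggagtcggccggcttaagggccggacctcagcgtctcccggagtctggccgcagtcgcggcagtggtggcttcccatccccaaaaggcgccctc
In LDHA the first bases of the matches lie at -185, -184, -87, -86, -73 and 39 from the start site. In BNIP3 they lie at -143, -134, -133, -125, -116 and -104. The EGLN3 window has none, which says only that these letters are not in those 300 bases.

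At least 1 match was found in 40 of the 60 promoters (66.7%), against 60.9% of the 14759 promoters of genes tested and 48.4% of all 35116 promoters in the RefSeq table. Among promoters of genes that fell the share was 19 of 25 (76%), and among those of genes that rose 14 of 22 (63.6%). Counted by gene, with a match in any promoter, the share was 16 of 18 (88.9%) for those that fell and 8 of 9 (88.9%) for those that rose, against 70.1% of all tested genes with a promoter. A gene with more promoters has more chances of a match, so the shares by gene are not on an equal footing. The 33 matched genes here had 60 promoters, and the 10195 tested genes with a promoter had 14759. A CACGTG was present in 8 of the 60 promoters (13.3%), in 9.36% of promoters of genes tested and in 7.26% of all promoters. A match of letters is a description and not a binding site.

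NPM1 (Entrez gene 4869), the target of the siRNA, had 922, 1366 and 922 counts with siControl and 293, 500 and 350 with siNPM1c, or 50.1 ± 0.985 and 23.2 ± 1.03 CPM (counts scaled by TMM, a method that centres the bulk of genes; mean ± SD, n = 3). All siNPM1c libraries lay below all siControl libraries, 2.15-fold lower (adjusted p = 5.82e-51, quasi-likelihood test of edgeR, Benjamini-Hochberg). The table has a single row for NPM1, so both alleles are summed.

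Library totals ran from 15075235 to 25190122 counts, in like ranges in both groups. Ribosomal RNA took 63.8% ± 0.753 (SD, n = 3) of the siControl counts and 70.2% ± 0.813 of the siNPM1c counts, and protein-coding genes 28.5% ± 0.457 and 21.8% ± 0.495. All CPM given as levels are scaled by TMM. Scaled by library totals alone, the median log2 fold change of all genes moved from -0.01 to -0.48, so directions below are relative to the other genes and not to total RNA. Of 10 markers of leukaemic blasts, 7 stood at 1 CPM or more in every library, while KIT (0.0544 and 0.0610 CPM, means of siControl and siNPM1c) and CD34 (0.558 and 0.662 CPM) were near 0. MPO was low but 2.52-fold higher with siNPM1c (0.732 and 1.75 CPM, adjusted p = 6.05e-05), CD38 was 1.69-fold higher and PTPRC 1.49-fold lower. The 10 together summed to 326 to 330 CPM in the siControl and 358 to 370 CPM in the siNPM1c libraries, and without CEBPA (217 and 259.8 CPM) the other 9 summed to 110.1 to 113 and 102 to 108 CPM. The part of these markers in the results below was not tested. Of 15 markers of other cell types only PECAM1 (43.0 and 52.6 CPM) reached 1 CPM in every library, the other 14 summed to 2.97 to 3.66 and 2.86 to 4.55 CPM, and CD3D and HBB were at 0 throughout. In bulk RNA, fewer cells of a kind and less RNA per cell cannot be told apart.

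Most of the glycolytic and hypoxia genes were lower in the siNPM1c libraries, by small amounts. Of the 37 tested, 22 were lower and 10 higher at an adjusted p under 0.05, and 5 did not pass (edgeR's quasi-likelihood test, adjusted over all 12938 genes). Over all genes tested, 21.4% were lower and 21.3% higher. Many of the 37 are abundant, and among genes of at least 5 CPM in 3 libraries 27.9% were lower and 27.1% higher. The median log2 fold change was -0.17 (range -0.84 to 1.09), against -0.01 over all genes. Groups did not overlap for 33 of the 37, with siNPM1c below in 23 and above in 10, where 24.9% and 24.3% of all genes tested did so. A change of 0.5 or more on the log2 scale in either direction was seen in 9 of 37 (24.3%, against 20.6% of all genes), and EGLN3 alone passed 1. Scaled by library totals alone the split became 30 lower and 1 higher, where 71.5% of all genes tested were lower and 3.9% higher. The median of the 37 was then -0.64, against -0.48 over all genes. Under either scaling 26 of 37 lay below the median of all genes.

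**Figure D1:**
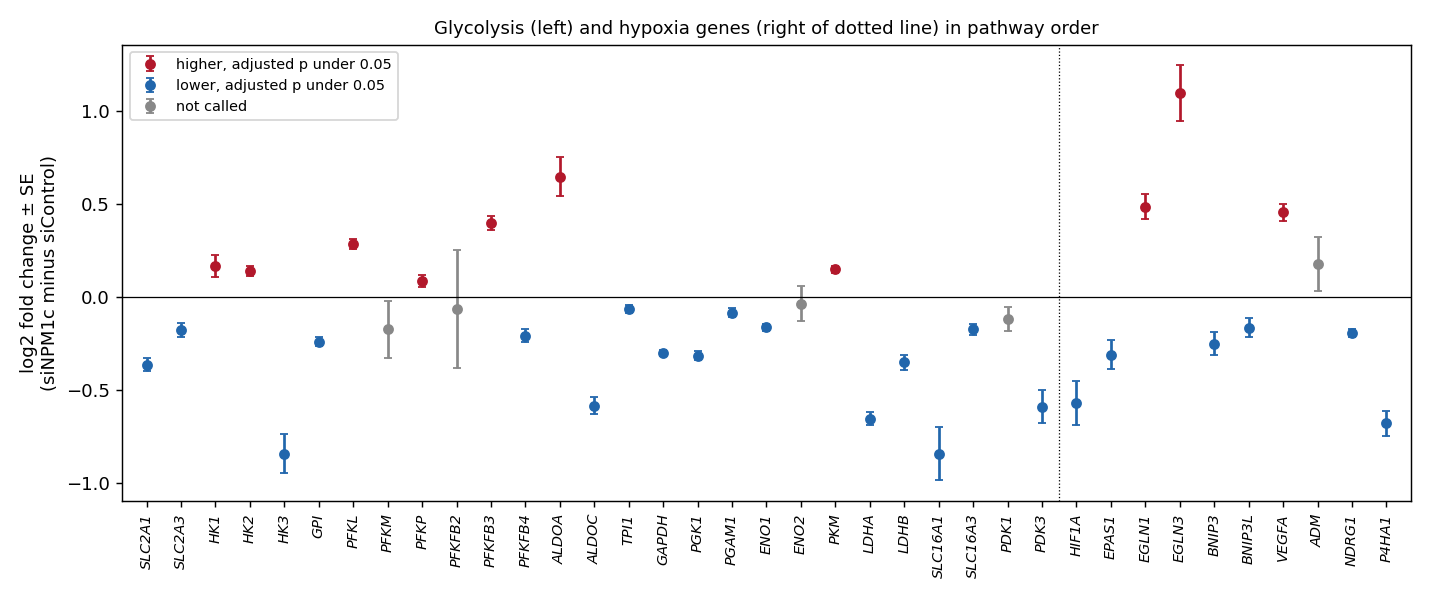
Log2 fold change (siNPM1c minus siControl) with its standard error for the 37 tested genes in pathway order, with hypoxia genes right of the dotted line. Red points were higher (10), blue lower (22) and grey not past an adjusted p of 0.05 (5), under TMM scaling. EGLN3 is the highest point at 1.09, and HK3 and SLC16A1 the lowest at -0.84.

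In the glycolysis arm 16 of 27 were lower and 7 higher, with a median log2 fold change of -0.17. In the hypoxia arm 6 of 10 tested were lower and 3 higher, with a median of -0.18. Of all genes tested, 21.4% were lower and 21.3% higher. The difference between the arms was not tested.

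Glucose enters through the facilitative transporters GLUT1 (SLC2A1) and GLUT3 (SLC2A3), and both transcripts fell. SLC2A1 stood at 102, 108 and 101 CPM with siControl and 82.8, 78.3 and 82.4 CPM with siNPM1c. The groups did not overlap, and the log2 fold change was -0.36 ± 0.03 (SE; adjusted p = 4.07e-20), 1.29-fold lower. SLC2A3 stood at 81.7, 83.8 and 83.7 and 68.3, 73.7 and 77.9 CPM, again without overlap, 1.13-fold lower (adjusted p = 1.65e-05). With a correction for GC content its log2 fold change was -0.10 in place of -0.18. SLC2A3 shares most of its sequence with SLC2A14, and how the authors assigned such reads was not given in the sources used here.

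Hexokinases trap glucose as glucose 6-phosphate, and they moved in opposite directions. HK2, the most abundant form by counts per kilobase and a known HIF target, stood at 155, 158 and 147 CPM in the siControl and 171, 167 and 169 CPM in the siNPM1c libraries. All siNPM1c values were above all siControl values, 1.10-fold (log2 fold change 0.14 ± 0.03, adjusted p = 6.26e-06). HK3, a form typical of myeloid cells, stood at 12.5, 11.9 and 11.6 CPM and 7.07, 5.99 and 7.29 CPM. It was 1.79-fold lower without overlap (log2 fold change -0.84 ± 0.10, adjusted p = 5.23e-13), and HK3 and SLC16A1 had the lowest fold changes of the set. HK1, the housekeeping form, was 1.12-fold higher (24.6 ± 0.437 and 27.7 ± 0.832 CPM, adjusted p = 0.0195), and this call was lost in DESeq2 (adjusted p = 0.0812), without the low-count filter (0.0777), without siControl library 2 (0.0550) and without siNPM1c library 1 (0.0643). Under library totals alone HK2 and HK1 turned to -0.33 and -0.30 on the log2 scale.

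GPI, which turns glucose 6-phosphate into fructose 6-phosphate, stood at 237, 229.7 and 232 CPM and 195, 198 and 198 CPM. It was 1.18-fold lower with no overlap (adjusted p = 2.26e-17). Phosphofructokinase makes the committed step, and its liver form PFKL stood at 148, 144 and 149 CPM and 187, 174 and 177 CPM. PFKL was 1.22-fold higher in every siNPM1c library than in any control (log2 fold change 0.29 ± 0.03, adjusted p = 1.32e-19), or 0.18 on the log2 scale with the GC correction and -0.18 under library totals alone. The platelet form PFKP was 1.06-fold higher (104 ± 2.63 and 109.8 ± 1.94 CPM, adjusted p = 0.0213), and -0.38 on the log2 scale under library totals alone. The PFKP call was lost with upper-quartile factors (adjusted p = 0.0632), without the low-count filter (0.169), in DESeq2 (0.0893), with the GC correction (0.742), without siControl library 2 (0.116) and without siNPM1c library 2 (0.0793). The muscle form PFKM was low, at 3.73, 4.71 and 4.79 CPM and 3.69, 3.98 and 4.12 CPM, and did not pass (adjusted p = 0.370).

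The bifunctional PFKFB enzymes set the level of fructose 2,6-bisphosphate, the main activator of phosphofructokinase. PFKFB3, a form with high kinase activity, stood at 71.0, 64.2 and 62.5 CPM and 84.6, 88.7 and 85.7 CPM. It was 1.32-fold higher with no overlap (log2 fold change 0.40 ± 0.04, adjusted p = 4.16e-20). PFKFB4, the other HIF-inducible form, stood at 91.5, 89.5 and 89.0 CPM and 76.1, 77.7 and 79.6 CPM. It was 1.16-fold lower with no overlap (log2 fold change -0.21 ± 0.04, adjusted p = 1.10e-07). PFKFB2 lay between 0.612 and 1.40 CPM in all libraries, with overlapping groups (adjusted p = 0.890). Under library totals alone PFKFB3 was at -0.07 on the log2 scale, and PFKFB4 at -0.68.

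Aldolase splits fructose 1,6-bisphosphate into trioses. ALDOC stood at 57.8, 61.1 and 57.3 CPM in the siControl and 38.7, 40.5 and 38.7 CPM in the siNPM1c libraries. The groups lay far apart, 1.5-fold lower (log2 fold change -0.58 ± 0.05, adjusted p = 1.38e-26). ALDOA was listed at 7.95, 6.09 and 7.75 CPM and 9.63, 11.3 and 12.4 CPM, 1.56-fold higher with no overlap (log2 fold change 0.65 ± 0.10, adjusted p = 3.14e-08) and 0.17 on the log2 scale under library totals alone (adjusted p = 0.123). Another annotated gene, LOC112694756, overlaps 99.9% of the ALDOA span and has 14 to 49 counts per library. How reads over both genes were counted was not given, so the ALDOA level and its share below are uncertain.

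Between aldolase and pyruvate kinase, TPI1, GAPDH, PGK1, PGAM1 and ENO1 all fell. GAPDH, which oxidises glyceraldehyde 3-phosphate, had the highest level of the set per kilobase of transcript (678 and 551 CPM per kilobase). It stood at 1265, 1266 and 1281 CPM and 1044, 1032 and 1021 CPM. The siNPM1c libraries were 1.23-fold lower and all below the controls (log2 fold change -0.30 ± 0.02, adjusted p = 2.16e-41). PGK1, the first ATP-yielding enzyme, stood at 226, 231 and 231 CPM and 187, 182 and 185 CPM. It was 1.24-fold lower with no overlap (log2 fold change -0.31 ± 0.02, adjusted p = 3.46e-26), or -0.18 with the GC correction. ENO1, the main enolase, was 1.12-fold lower (421 ± 5.45 and 377 ± 6.92 CPM, adjusted p = 2.46e-12). PGAM1 and TPI1 moved least, 1.06-fold and 1.05-fold lower (adjusted p = 0.00152 and 0.0200). The PGAM1 call was lost without siNPM1c library 2 (0.0720). The TPI1 call was lost in DESeq2 (0.137) and without siControl library 2 (0.158), siNPM1c library 2 (0.163) or siNPM1c library 3 (0.0583), while the GC correction moved its log2 fold change from -0.06 to -0.12. GAPDH has 61 processed pseudogenes and PGAM1 has 13 in GENCODE 29, which can draw or lend reads. ENO2, a neuronal form that HIF also induces, lay between 9.96 and 11.6 CPM in all libraries with overlapping groups (adjusted p = 0.786).

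**Figure D2:**
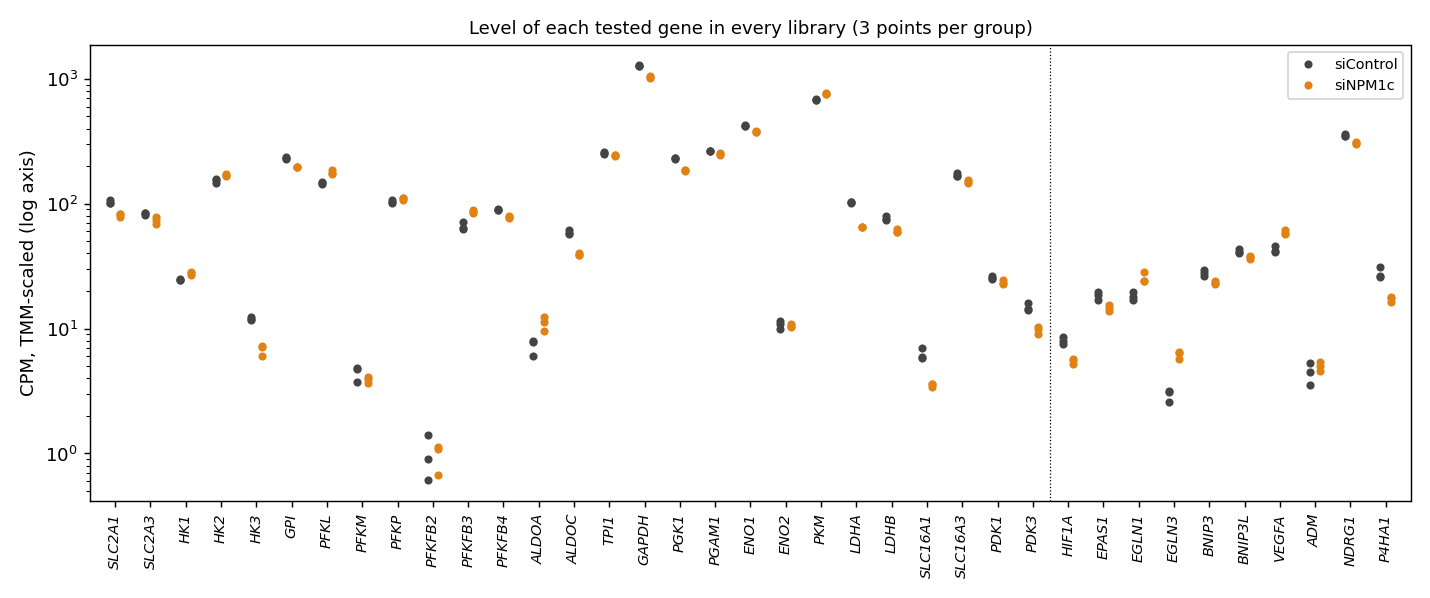
CPM on a log axis for the 37 tested genes in pathway order, with 3 grey points for siControl and 3 orange points for siNPM1c libraries, and hypoxia genes right of the dotted line. Points of a group lie close together, GAPDH at 1021 to 1281 CPM is highest, and PFKFB2 at 0.612 to 1.40 CPM is lowest.

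Pyruvate kinase went the other way from TPI1, GAPDH, PGK1, PGAM1 and ENO1. PKM stood at 686, 682 and 682 CPM in the siControl and 760.1, 749 and 764 CPM in the siNPM1c libraries. The siNPM1c values were all higher, 1.11-fold (log2 fold change 0.15 ± 0.02, adjusted p = 5.37e-13), though -0.32 under library totals alone and 0.09 with the GC correction. Gene counts do not separate its M1 and M2 splice forms.

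The steps that make and export lactate fell. LDHA, the lactate dehydrogenase subunit that favours making lactate and a HIF and MYC target, stood at 101, 103 and 104 CPM and 64.8, 65.5 and 65.2 CPM. The 3 siNPM1c libraries lay close together and far below the controls, 1.57-fold lower (log2 fold change -0.65 ± 0.04, adjusted p = 2.65e-44), the smallest adjusted p of the set. LDHB, the subunit that favours making pyruvate, stood at 75.8, 74.6 and 79.9 CPM and 62.3, 58.9 and 59.6 CPM. It was 1.27-fold lower with no overlap (log2 fold change -0.35 ± 0.04, adjusted p = 2.44e-15), or -0.23 with the GC correction. The lactate carrier MCT1 (SLC16A1) stood at 5.78, 7.03 and 5.92 CPM and 3.61, 3.59 and 3.38 CPM. It was 1.79-fold lower with no overlap (log2 fold change -0.84 ± 0.14, adjusted p = 1.21e-07). MCT4 (SLC16A3), the HIF-inducible exporter and by far the more abundant of the pair, was 1.13-fold lower (169.5 ± 5.47 and 150.3 ± 4.11 CPM, adjusted p = 1.56e-08), and -0.29 in place of -0.17 on the log2 scale with the GC correction.

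The kinases PDK1 and PDK3 switch off pyruvate dehydrogenase and so keep pyruvate from the mitochondria. PDK3 stood at 14.5, 14.2 and 15.9 CPM and 9.03, 10.3 and 10.0 CPM. It was 1.5-fold lower with no overlap (log2 fold change -0.59 ± 0.09, adjusted p = 3.55e-09). PDK1, the better known HIF target, stood at 25.5, 26.2 and 25.1 CPM and 22.9, 24.6 and 23.2 CPM, below the controls in each library, but did not pass (log2 fold change -0.12 ± 0.06, adjusted p = 0.126), and was at 0.02 on the log2 scale with the GC correction.

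Summed over the 18 catalytic enzymes from hexokinase to lactate dehydrogenase, the level was 4044, 4061 and 4068 CPM in the siControl and 3754, 3696 and 3727 CPM in the siNPM1c libraries. Without GAPDH the other 17 summed to 2779, 2794 and 2787 CPM and to 2710.1, 2664 and 2706 CPM. The groups did not overlap in either sum. Both sums include ALDOA, whose level is uncertain as stated above.

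Because isozymes of a step moved unequally, each was also taken as a share of its family in counts per kilobase, a measure within a library that needs no scaling between libraries. PFKFB3 rose from 36.8% ± 1.27 to 46.9% ± 0.759 (SD, n = 3) of the PFKFB family, and PFKFB4 went from 62.9% ± 1.14 to 52.8% ± 0.692. HK3 went from 10.5% ± 0.246 to 5.64% ± 0.501 of the hexokinases, and HK2 from 71.2% ± 0.600 to 74.7% ± 0.634. LDHB went from 54.1% ± 0.757 to 59.2% ± 0.830 of the lactate dehydrogenase subunits. These shares separated the groups in all libraries.

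ALDOC made up 90.7% ± 1.46 and then 81.1% ± 1.91 of the aldolases, subject to the doubt about ALDOA. PFKP made up 43.0% ± 0.319 and 39.8% ± 0.877 of phosphofructokinase, and SLC16A3 96.1% ± 0.503 and 97.5% ± 0.0914 of the lactate carrier pair. SLC2A3 held 42.9% ± 0.703 and 45.8% ± 1.93 of the glucose transporter pair, where the highest control and the lowest siNPM1c library both stood at 43.6%. ENO2 held 2.08% ± 0.169 and 2.27% ± 0.0385 of the enolases with overlapping groups. In exact two-sided permutation tests over 8 families, 7 gave p = 0.1 and ENO2 p = 0.2 (Benjamini-Hochberg values 0.114 and 0.2). With 3 against 3 libraries 0.1 is the smallest p possible, so no share could pass 0.05. Without division by length LDHB held 42.8% and 48.0%, so which subunit leads depends on the length used, while the shift has the same direction.

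**Figure D3:**
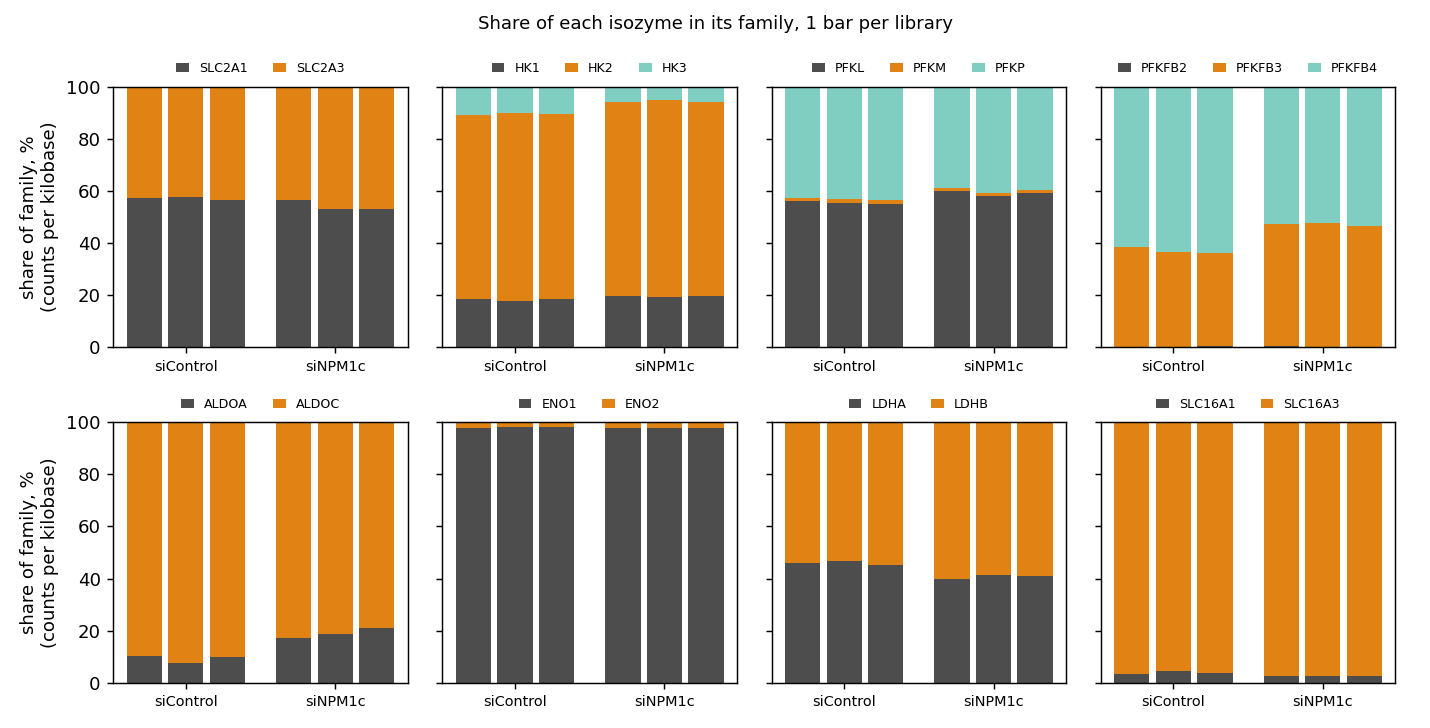
Share of each isozyme in its family's counts per kilobase, in percent, with 1 stacked bar for each of the 3 siControl and 3 siNPM1c libraries, in 8 families. The PFKFB3 share is larger in each siNPM1c bar (mean 46.9% against 36.8%) and the HK3 share smaller (5.64% against 10.5%), while the ENO2 share is 2.08% and 2.27%.

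Among the oxygen-sensing genes, transcripts of the HIF alpha subunits HIF1A and EPAS1 fell. Those of EGLN1 and EGLN3, hydroxylases that mark the subunits for degradation, rose. EGLN2, of the same family and named here after its value was seen, was too low to test (0.322 and 0.343 CPM, means of siControl and siNPM1c). HIF1A stood at 7.95, 8.59 and 7.59 CPM in the siControl and 5.57, 5.17 and 5.74 CPM in the siNPM1c libraries. It was 1.48-fold lower with no overlap (log2 fold change -0.57 ± 0.12, adjusted p = 2.44e-05), or -0.34 with the GC correction (adjusted p = 0.0158). EPAS1, which encodes HIF-2alpha, stood at 19.6, 16.8 and 18.6 CPM and 14.6, 15.4 and 13.8 CPM. It was 1.24-fold lower with no overlap (log2 fold change -0.31 ± 0.08, adjusted p = 0.000409). The antisense gene HIF1A-AS3 overlaps 62.0% of the HIF1A span with 7 to 15 counts per library, and whether counting used strand was not given.

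EGLN1 (PHD2) is the main HIF hydroxylase, and EGLN3 (PHD3) is one that HIF itself induces. EGLN1 stood at 16.9, 18 and 19.5 CPM and 28.4, 24.1 and 24.1 CPM. It was 1.40-fold higher with no overlap (log2 fold change 0.48 ± 0.07, adjusted p = 2.09e-10) and at 0.02 under library totals alone (adjusted p = 0.835). EGLN3 stood at 3.17, 2.57 and 3.12 CPM and 5.72, 6.47 and 6.35 CPM. All siNPM1c libraries lay well above all controls, 2.13-fold higher (log2 fold change 1.09 ± 0.15, adjusted p = 6.49e-11). EGLN3 was the sole gene of the set called higher under library totals alone, at 0.62 on the log2 scale.

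The HIF targets of the set did not move as one. VEGFA, the angiogenic growth factor, stood at 40.9, 42.1 and 46.2 CPM and 57.8, 57.6 and 61.5 CPM. It was 1.37-fold higher with no overlap (log2 fold change 0.45 ± 0.05, adjusted p = 1.78e-18), and at -0.02 under library totals alone. P4HA1, a collagen prolyl hydroxylase subunit, stood at 26.5, 25.9 and 31.1 CPM and 16.3, 17.9 and 17.4 CPM. It was 1.60-fold lower with no overlap (log2 fold change -0.68 ± 0.07, adjusted p = 4.12e-18).

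The mitophagy receptors BNIP3 and BNIP3L (NIX) were both slightly lower. BNIP3 stood at 27.9, 26.5 and 29.5 CPM and 23.2, 22.9 and 24.2 CPM, 1.19-fold lower with no overlap (adjusted p = 0.000383). BNIP3 has 39 processed pseudogenes, and PPP2R2D, with 258 to 480 counts per library, overlaps 27% of its span. BNIP3L was 1.12-fold lower (41.6 ± 1.32 and 37.2 ± 1.24 CPM, adjusted p = 0.00436), a call lost in DESeq2 (0.0560), with the GC correction (0.205) and without siControl library 2 (0.0586). NDRG1, a stress-induced gene and strong HIF target, was 1.14-fold lower (351 ± 6.48 and 307 ± 4.83 CPM, adjusted p = 4.64e-15). The vasodilator peptide gene ADM stood at 5.28, 4.49 and 3.55 CPM and 4.59, 5.03 and 5.40 CPM with overlapping groups and did not pass (adjusted p = 0.332).

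CA9, a carbonic anhydrase much used as a mark of hypoxia, had 0 counts in 5 libraries and 1 in siNPM1c library 1. ANKRD37, another HIF target, had 1 count in siNPM1c library 2 and 0 in the rest. A count of 0 allows up to 3 counts, which equals 0.109 to 0.226 CPM depending on the library and covers counting error only. Neither gene could be compared at this depth.

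Transcripts called higher and lower also differed in base composition across the whole table. The median GC content of all genes called lower was 46.2% and of those called higher 56.0%. For the 22 and 10 genes here the medians were 54.3% and 56.9%. With each library's trend with GC content removed, 21 of the 37 were lower and 9 higher. Among all genes tested with this correction, 19.6% were lower and 20.6% higher. On the log2 scale the 37 then had a median of -0.18, where that of all genes was -0.005. Of the 37, 24 fell below this all-gene value.

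**Figure D4:**
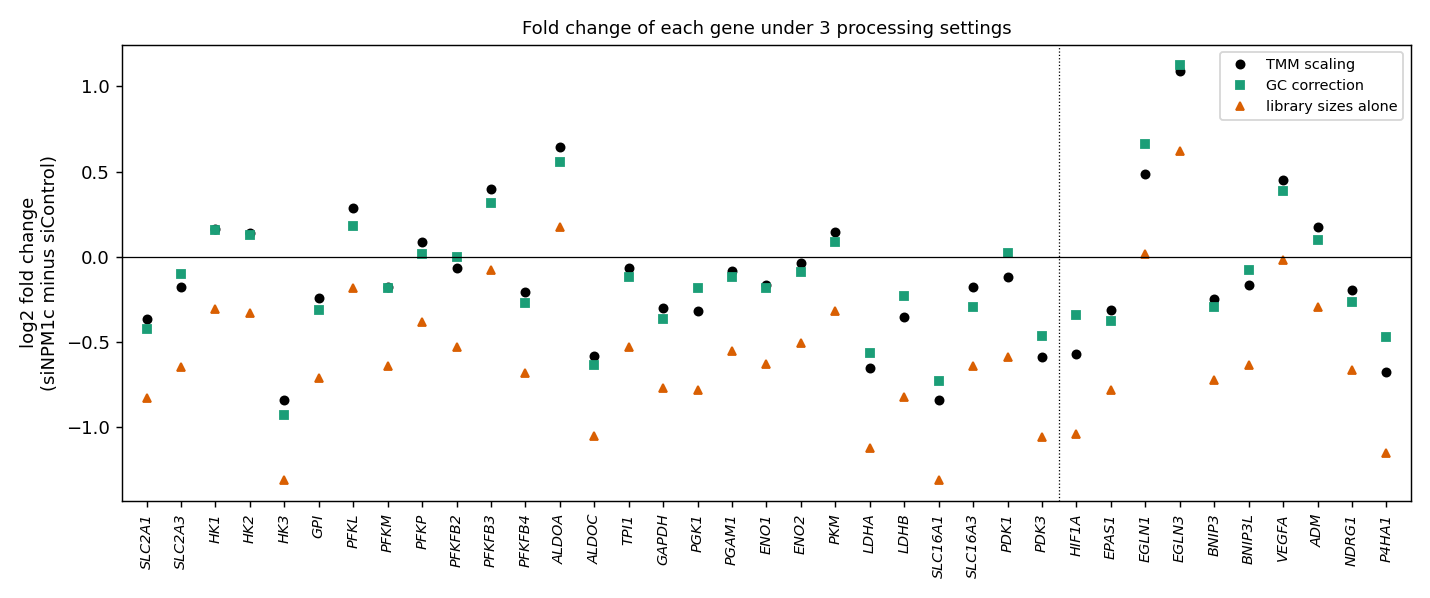
Log2 fold change of the 37 tested genes under TMM scaling (black circles), with the GC correction (green squares) and under library sizes alone (orange triangles). Circles and squares lie close for most genes, and triangles lie lower throughout, where HK1, HK2, PFKL, PFKP, PFKFB3, PKM, VEGFA and ADM cross from above to below 0.

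The wider pathways were read from 7 lists of 139 other genes, not picked for how they moved. Of 113 tested, 27 were higher, 32 lower and 54 did not pass, and their median log2 fold change was -0.01. Over all genes tested, 21.3% were higher and 21.4% lower. Under library totals alone 1 was higher and 85 lower, where 3.9% of all genes tested were higher and 71.5% lower.

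Of 15 other enzymes of glycolysis and sugar phosphates tested, 2 rose, 2 fell and 11 did not pass. The risers were GALM, which interconverts forms of glucose (5.99 ± 0.211 and 8.83 ± 0.828 CPM, adjusted p = 1.93e-05), and FBP1, the gluconeogenic fructose bisphosphatase (9.97 ± 0.599 and 13.5 ± 0.491 CPM, adjusted p = 3.7e-05). ADPGK, an ADP-dependent glucokinase, and PGM1, which links glucose 6-phosphate to glycogen, fell 1.20-fold and 1.19-fold (adjusted p = 0.00129 and 0.00185). Among sugar and monocarboxylate carriers 3 of 12 tested rose (SLC2A13, SLC2A14 and BSG) and 3 fell (SLC37A4, SLC2A9 and SLC5A3). For both lists, the shares over all genes tested were 21.3% higher and 21.4% lower. The inositol carrier SLC2A13 was 1.59-fold higher (adjusted p = 4.89e-05), while BSG, the chaperone of MCT1 and MCT4, was 1.04-fold higher with overlapping groups (adjusted p = 0.0254). SLC2A14 was 1.73-fold higher from a low level (0.762 and 1.30 CPM), also with overlapping groups (adjusted p = 0.0274).

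The pentose phosphate pathway, which leaves glycolysis at glucose 6-phosphate and makes NADPH and ribose, had 4 of 9 tested genes higher and 1 lower, with a median of 0.12. Among all genes tested 21.3% were higher and 21.4% lower. PGD, a dehydrogenase of the pathway, went from 33.1 ± 1.92 to 44.7 ± 2.27 CPM (adjusted p = 1.18e-13). TALDO1, the transaldolase, was 1.18-fold higher (adjusted p = 4.24e-09). PRPS1, which activates ribose for nucleotide synthesis, was 1.81-fold lower (adjusted p = 2.26e-06).

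In glycogen metabolism none of 14 tested genes rose and 5 fell. They included the branching enzyme GBE1 (36.4 ± 1.14 and 26.3 ± 0.880 CPM, adjusted p = 1.43e-13), UGP2, which makes UDP-glucose (13.7 ± 0.412 and 9.05 ± 0.393 CPM, adjusted p = 4.2e-09), and the phosphorylase PYGL (1.16-fold lower, adjusted p = 7.69e-09). At the entry of pyruvate into mitochondria 4 of 13 rose and 2 fell. For this list and the glycogen list, the shares over all genes tested were 21.3% higher and 21.4% lower. The pyruvate dehydrogenase subunit PDHA1 was 1.45-fold higher (adjusted p = 6.04e-07) and the partner subunit PDHB 1.43-fold lower (adjusted p = 0.00357). The pyruvate carrier subunit MPC2 and the phosphatase PDP2 were 1.46-fold and 1.28-fold higher, and DLD, shared by several dehydrogenase complexes, was 1.41-fold lower.

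Of 17 further HIF regulators tested, 5 rose and 5 fell, where 21.3% of all genes tested rose and 21.4% fell. VHL, the ubiquitin ligase subunit that recognises hydroxylated HIF, went from 103 ± 1.22 to 121 ± 3.24 CPM (1.18-fold higher, adjusted p = 1.1e-11), and ELOB, a partner of VHL in that ligase, was 1.23-fold higher. CUL2, the scaffold of the same ligase, named here after its value was seen, went from 5.76 ± 0.704 to 3.86 ± 0.484 CPM (1.51-fold lower, adjusted p = 0.000277). HIF1AN (FIH), which hydroxylates HIF to block coactivator binding, went from 30.1 ± 0.948 to 20.1 ± 0.246 CPM (1.49-fold lower, adjusted p = 7.23e-16). RACK1 and LIMD1, which also act in HIF turnover, were 1.14-fold and 1.10-fold lower, and OS9 was 1.18-fold higher.

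Of 35 other HIF targets tested, 9 rose and 15 fell, with a median of -0.08, where 21.3% of all genes tested rose and 21.4% fell. The largest rise was in IGFBP3, a secreted binder of insulin-like growth factors, from 7.88 ± 0.708 to 24.6 ± 2.39 CPM (3.11-fold, adjusted p = 6.03e-49). HILPDA, a lipid droplet protein induced by hypoxia, and WSB1 were 1.30-fold and 1.35-fold higher. CXCR4, the homing receptor for the marrow, was 1.43-fold lower (adjusted p = 6.55e-16), and ZNF395 1.16-fold lower. GBE1 belongs to both the glycogen and the HIF target list.

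**Figure D5:**
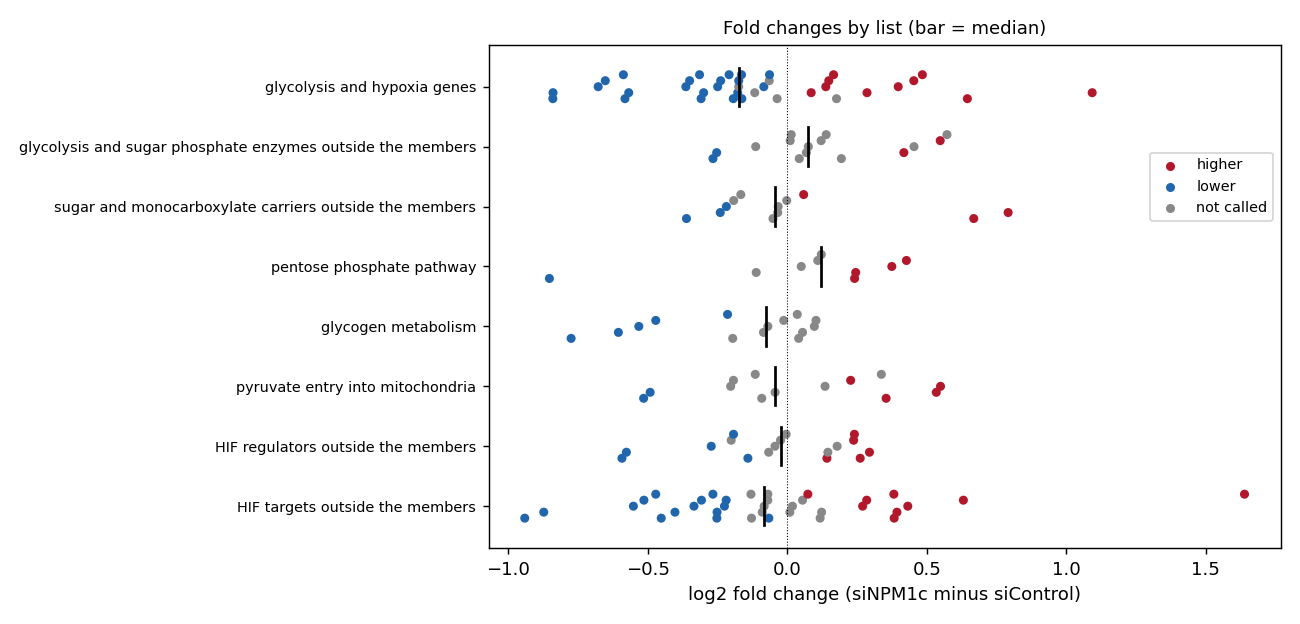
Log2 fold change (siNPM1c minus siControl, TMM scaling) of each tested gene, for the 37 glycolysis and hypoxia genes and 7 lists of other genes, with red for higher, blue for lower and grey for not past an adjusted p of 0.05. Black bars are medians, from -0.17 for the first set to 0.12 for the pentose phosphate pathway, and vertical offsets within a list only separate points. IGFBP3 is the point farthest to the right at 1.64.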

How the data were processed

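RNA sequencing of total RNA gave 6 libraries, grouped by their titles into 3 siControl and 3 siNPM1c. The authors deposited whole-number, unnormalized counts for each Entrez gene in 1 table. Per the submitters' processing notes, CASAVA 1.8, cutadapt 2.6, STAR 2.7.5a and DESeq2 1.34.0 were used with the builds hg38 and mm10. What each was used for, and how reads were counted (tool, annotation, strand, multiply mapped reads), is not given in the sources used here, so counts of overlapping or near-identical genes can be split in unknown ways. Symbols came from NCBI tables (GRCh38.p14) for 28261 of the 28307 genes, and 46 were unmatched.

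Models were fitted with edgeR 4.0.16 (R 4.3.3). The filter was filterByExpr (minimum count 10, minimum total 15), libraries were scaled by TMM, and groups were compared by the quasi-likelihood test of edgeR (robust, two-sided) with Benjamini-Hochberg adjustment over all 12938 genes tested, called at an adjusted p under 0.05. The 39 genes, the 7 lists of other pathway genes and the tests were chosen with earlier results of these data known. Named genes are all 39, NPM1, and up to 3 called genes of smallest p per list and direction, of which 1 is not reported here. Genes were put on a per-kilobase scale with the longest principal coding transcript of GENCODE 29. Pairs of libraries differed beyond sampling noise (chi-square per degree of freedom 1.46 to 2.36 within groups and 23.9 to 38.5 between), so none was counted as a copy. The procedure was tested on simulated data with the same dispersion for every gene, which real genes need not share. Far fewer genes were changed there than were called here, and no shift in ribosomal RNA share was built in. The rates need not hold for the real comparison, and the scaling was not put to the test. The procedure recovered 32.7% of tested genes changed 1.25-fold, 67.3% at 1.5-fold, 92% at 2-fold and 100% at 4-fold. Alternatives used DESeq2 1.42.0 and limma 3.58.1 (voom) and are given in the closing section.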

Additional observations from a re-analysis of the deposited data

How the results depend on the processing

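The glycolysis and hypoxia genes called ran from 8 to 10 higher and from 20 to 22 lower under the alternatives that follow. These were DESeq2 size factors, upper-quartile factors, both other low-count filters, DESeq2 (8 higher, 20 lower) and limma-voom. They were also a fit that was not robust, removal of structural RNA genes, the GC correction and each library left out. Each tested 37 of these genes, except that 39 were tested without the low-count filter and 33 with that of 5 CPM in 3 libraries. Library sizes alone differed. There 1 of the 37 was higher and 30 lower, their median log2 fold change was -0.64, 505 genes of the whole table were higher and 9253 lower, and 1 of the other pathway genes was higher and 85 lower. The log2 fold changes of HK1 (-0.30), HK2 (-0.33), PFKL (-0.18), PFKP (-0.38), PFKFB3 (-0.0743), PKM (-0.32), VEGFA (-0.0153) and ADM (-0.29) reversed, and ribosomal RNA shares differed between groups, whose part in this was not tested. DESeq2 called 1754 genes of the table lower, against 2766.

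With the GC correction PFKFB2 (0.00059) and PDK1 (0.0242) changed sign. So did ENO2 without siControl library 1 (0.0057, range -0.0836 to 0.0057 over libraries left out) and PFKFB2 without siControl library 3 (0.24) or siNPM1c library 2 (0.19, range -0.27 to 0.24). None of these passed the test. With single libraries left out, the median of the 37 ran from -0.18 to -0.15, and the table gave 2435 to 2675 genes higher and 2196 to 2579 lower. Across 625 pairs of a gene and an alternative, 589 kept direction and side of the threshold, 20 lost the call, 3 gained one and 13 reversed. The HK2 share changed by 2.36 percentage points on raw counts in place of 3.57.

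Same-numbered libraries did not deviate together (correlations 0.0193, -0.00266 and -0.00408), and not every library correlated best with its own number. All correlations between the groups were small (-0.013 to 0.0193), so they show no pairing by number but cannot exclude it. With the replicate number as a block, 10 of the 37 were higher and 22 lower, and 2793 genes of the table were higher and 2793 lower. Protein-coding genes received 3414688 to 6695652 counts per library, which limits genes near or below 1 CPM such as PFKFB2, CA9 and ANKRD37.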
